A study of Oryza sativa with 6 samples.

Results

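WRKY transcription factors are plant DNA-binding proteins named after the amino acids WRKY of their shared domain, and most bind W-box elements in the promoters of target genes. In rice they are best known for switching defence genes on or off after attack by bacteria and fungi, and some members act as repressors of hormone-responsive genes in the seed. The family members described here are the genes whose symbol or synonym in the gene table is WRKY or OsWRKY followed by a number. The rule found 6 genes among the 17905 genes that the array's annotation ties to a probe set, and 7 probe sets among 57194 for rice. These are OsWRKY62, OsWRKY76, OsWRKY71, OsWRKY24, OsWRKY51 and WRKY9. Each has 1 probe set except OsWRKY71, which has 2, of which the brighter was used. Many rice WRKY genes carry no such name in the table, so the 6 genes are not the whole family.

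The samples are leaf blades (the 5th and 6th) of hydroponically grown, hygromycin-resistant rice (Oryza sativa). Plants that overexpress Os-LBD37, which encodes a LOB-domain transcription factor, were compared with an empty vector control line, on 3 one-colour Affymetrix arrays each. The overexpressor is the single line RK16331-13, so Os-LBD37 itself and anything else that differs between the lines cannot be told apart, and the labels name no promoter for the transgene. The level of Os-LBD37 was not analysed here. Values are probe set intensities on a linear scale, which measure each gene against itself across arrays and not against other genes.

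Background on each array, the 95th percentile of 132 probe sets that target sequences foreign to rice, lay between 27.3 and 45.4, and between 50.9 and 55.4 percent of the rice probe sets exceeded it. Replicate 2 stood apart in both lines. Its correlations with replicates 1 and 3 of the same line were 0.954 to 0.957, while replicates 1 and 3 correlated at 0.978 and 0.980. The log2 ratio of 3 prime to 5 prime signal of the control transcripts, which reflects RNA integrity, was 2.37 on empty vector replicate 2 and 1.25 to 1.67 on the other arrays. The 8 measured leaf blade markers were above background on every array, among them RBCS, the small subunit of Rubisco, at 19825 to 26450. Of the 5 measured markers of roots and other organs, LSI2, a root silicon exporter gene, and SHR1 were above background on no array, while LSI1 and SCR1 were above it on all 6.

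All 6 WRKY genes were above background on all 6 arrays, the lowest value being 4.26 times the background of its array. All 6 had higher mean log2 values in the overexpressor, with a median log2 change of 1.01, against 0.007 over all genes, of which 50.7 percent had a change above 0. The 95% intervals of OsWRKY71, OsWRKY51 and WRKY9 included 0. OsWRKY62 and OsWRKY76 varied together over the 6 arrays (Pearson's r = 0.992), so the 6 changes are not independent of each other. Log2 changes are overexpressor minus empty vector on the log2(intensity + 16) scale, with the standard error (SE) of a limma fit to all rice probe sets. By this fit 0 of the 6 passed a Benjamini-Hochberg adjusted p of 0.05 over all genes, where 0.519 percent of all genes did. That share is 93 genes, and leaving out any single array lowered it to between 4 and 35 genes, with 0 of the 6 WRKY genes past the threshold each time. At an unadjusted p under 0.05 there were 3, OsWRKY62, OsWRKY76 and OsWRKY24, all higher, against 14.2 percent of all genes, or 8.49 percent in this direction. In these 3 genes every overexpressor array was above every empty vector array, a state reached by 11.8 percent of all genes in this direction and 9.36 percent in the other. A block for the replicate number assumes that equal numbers pair the arrays. With it, 2 of the 6 passed, OsWRKY62 and OsWRKY76, against 1.31 percent of all genes. The same 2 passed with replicate 2 as a batch term and with array weights, where 2.76 and 2.26 percent of all genes passed, and 0 passed without both replicate 2 arrays, where 1.33 percent did. In leaf tissue measured in bulk, a different number of cells of a type and a different amount of RNA per cell cannot be told apart.

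OsWRKY62, also named XB10, encodes a protein that binds the rice immune receptor XA21, and its overexpression is known to weaken resistance to bacterial blight. Its intensity in the empty vector line was 401, 133 and 163 in replicates 1 to 3. In the overexpressor it was 5457, 1053 and 1531. The lowest overexpressor array was thus well above the highest empty vector array, and replicate 1 was the highest array in each line. The means were 232 ± 147 (SD, n = 3) and 2680 ± 2416 (SD, n = 3). The log2 change was 3.22 ± 0.66 (SE), a 9.33-fold difference with a 95% interval of 3.22 to 27.1-fold. It did not pass (limma adjusted p = 0.0883), and 0.168 percent of all genes had a larger positive change. The replicates differed 5.12-fold within the overexpressor and 2.79-fold within the control on the same scale. Taken by replicate number, however, the overexpressor was 13.1-fold, 7.16-fold and 8.64-fold above the control. With the replicate block the SE fell to 0.25 and the gene passed (limma adjusted p = 0.0169). Without both replicate 2 arrays the change was 3.41 (adjusted p = 0.0892).

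OsWRKY76 encodes a repressor of the same subgroup, known from rice for lowering resistance to blast fungus and raising cold tolerance when overexpressed. It was at 875, 330 and 329 in the empty vector line and at 5468, 1451 and 2624 in the overexpressor. The lines did not overlap, and replicate 1 was again the highest array of each line. Its log2 change was 2.55 ± 0.56 (SE, n = 3 per line), or 5.85-fold with a 95% interval of 2.36 to 14.5-fold, and it did not pass (limma adjusted p = 0.101). By replicate number the differences were 6.16-fold, 4.23-fold and 7.66-fold. With the replicate block the SE was 0.24 and the gene passed (limma adjusted p = 0.0219). The change was 2.78 without both replicate 2 arrays (adjusted p = 0.0872). The plot of intensity by array shows replicate 1 as the highest array of each line in both genes.

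**Figure D1:**
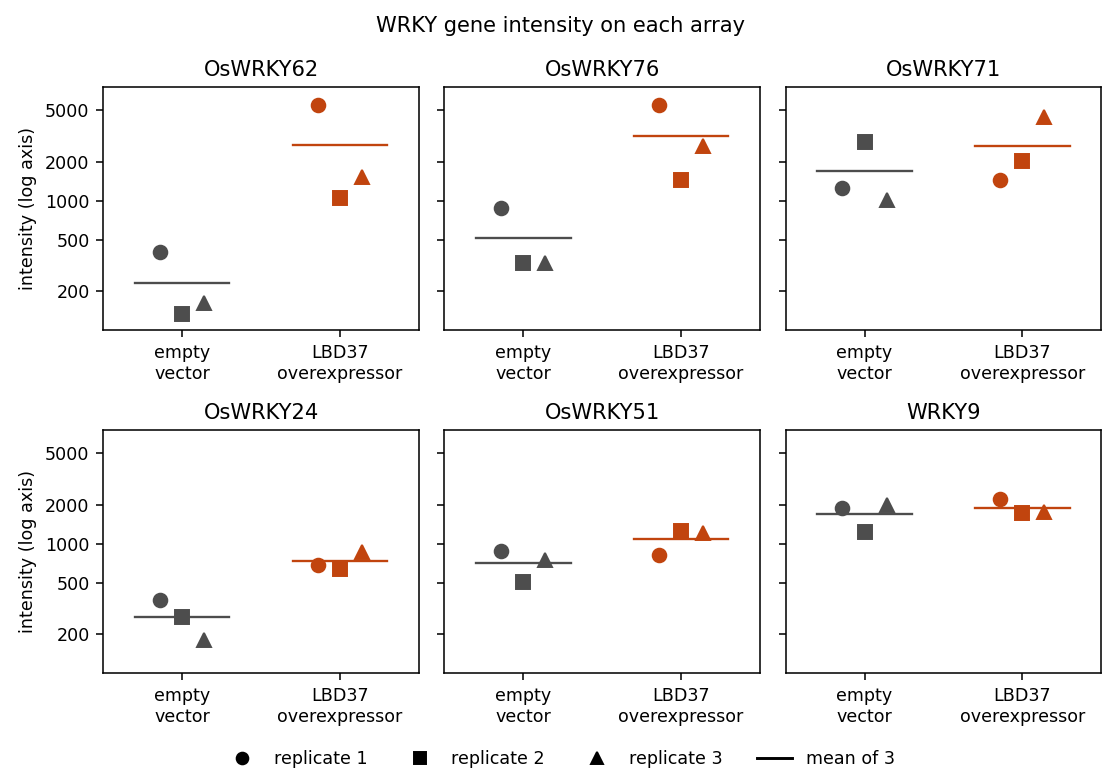
Intensity of the 6 WRKY genes on each array (log axis), with empty vector arrays in grey, overexpressor arrays in orange, marker shape for the replicate number and a line for the mean of 3. OsWRKY62, OsWRKY76 and OsWRKY24 show no overlap between the lines, while OsWRKY71, OsWRKY51 and WRKY9 do.

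OsWRKY62 and OsWRKY76 lie next to each other on rice chromosome 9 in assembly ASM3414082v1, with 0 annotated genes between them. Of the 10 nearest genes, 5 on each side of the pair, 6 were measured. Of these, 0 passed (limma adjusted p from 0.232 to 0.862), where 0.519 percent of all genes did. An unadjusted p under 0.05 was found for 1, against 14.2 percent of all genes. With 6 genes, these counts cannot be told apart from those shares. The gene on the OsWRKY76 side, LOC4347068, had a log2 change of -0.39 ± 0.53 (SE, adjusted p = 0.807). The gene on the OsWRKY62 side, CIPK16, for a calcineurin B-like interacting kinase, had -0.44 ± 0.37 (adjusted p = 0.665). Both had lower means in the overexpressor, but neither change was resolved from 0 (limma unadjusted p = 0.487 and 0.263). The other measured neighbours had changes above 0, at 0.16, 0.29, 0.87 and 0.47. The smallest p among the 6 was that of LOC4347073, 4 genes away, at 0.87 ± 0.29 (adjusted p = 0.232). The 2 WRKY genes are related in sequence, and whether their probe sets share signal was not tested, since no probe sequences were used here. Neither probe set is of the types marked as able to cross-hybridize.

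**Figure D2:**
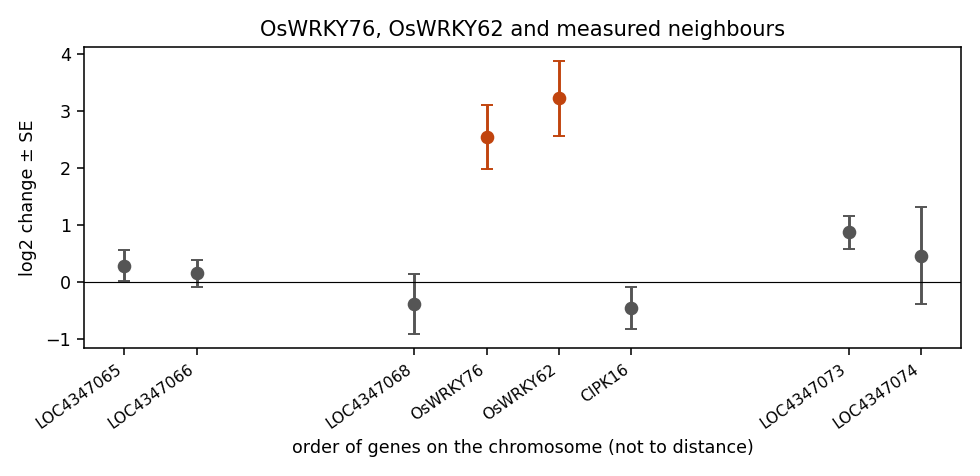
Log2 change (overexpressor minus empty vector, ± SE) of OsWRKY76 and OsWRKY62 in orange and of the 6 measured genes among the 10 nearest in grey, in chromosome order and not to distance. The changes of the neighbours lie between -0.44 and 0.87, and those of the 2 WRKY genes are 2.55 and 3.22.

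OsWRKY71 encodes another member of this repressor subgroup, known in the rice aleurone for blocking gibberellin-induced amylase genes. It was at 1251, 2859 and 1002 in the empty vector line and at 1445, 2011 and 4433 in the overexpressor. The lines overlapped, with the highest control array, replicate 2, above 2 of the 3 overexpressor arrays. The log2 change was 0.61 ± 0.52 (SE), with a 95% interval of -0.61 to 1.82, and did not pass (limma adjusted p = 0.676). Without both replicate 2 arrays it was 1.17 (adjusted p = 0.301). It rested on single arrays, since it was 0.15 without overexpressor replicate 3 and 1.06 without empty vector replicate 2. The second probe set was at 300.4, 183 and 190.4 in the control and at 236, 347 and 843 in the overexpressor. It shared the high value of overexpressor replicate 3 but not that of empty vector replicate 2, where it was at its lowest. Its log2 change was 0.86 ± 0.47 (SE), and it did not pass over probe sets (limma adjusted p = 0.622), where 0.103 percent of all probe sets passed.

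OsWRKY51 encodes a partner of OsWRKY71 in repression of gibberellin responses in the aleurone. It was at 877, 507 and 745 in the empty vector line and at 811, 1249.9 and 1206 in the overexpressor. Only overexpressor replicate 1 lay inside the control's range. The log2 change was 0.62 ± 0.29 (SE), with a 95% interval of -0.065 to 1.30, and did not pass (limma adjusted p = 0.405). It was 0.29 without both replicate 2 arrays (adjusted p = 0.568).

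OsWRKY24 encodes a repressor of gibberellin and abscisic acid responses in aleurone cells. It was at 368, 272 and 180.4 in the empty vector line and at 688, 642 and 864 in the overexpressor. The lines did not overlap, and the spread within the overexpressor was small, at 1.34-fold from lowest to highest. The log2 change was 1.41 ± 0.31 (SE, n = 3 per line), or 2.66-fold with a 95% interval of 1.62 to 4.37-fold, and did not pass (limma adjusted p = 0.0996). Unlike in OsWRKY62 and OsWRKY76, the replicate block left its SE at 0.31 (limma adjusted p = 0.0991). By replicate number the differences ranged from 1.83-fold to 4.48-fold.

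WRKY9 was at 1871, 1234 and 1989 in the empty vector line and at 2195, 1719 and 1756 in the overexpressor. The lines overlapped, and control replicates 1 and 3 were above 2 of the overexpressor arrays. Its log2 change was 0.17 ± 0.25 (SE), with a 95% interval of -0.41 to 0.76, the smallest of the 6 (limma adjusted p = 0.819). It was -0.038 without empty vector replicate 2.

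**Figure D3:**
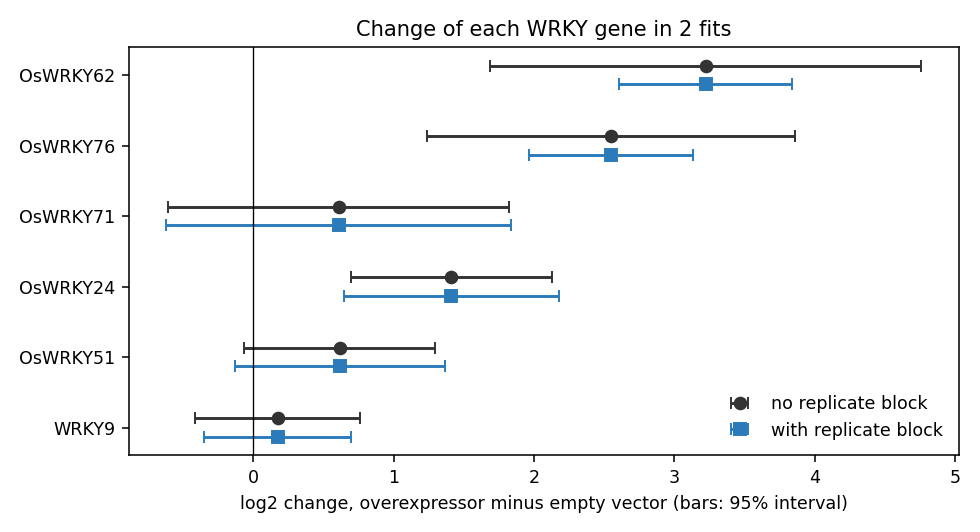
Log2 change (overexpressor minus empty vector) of each WRKY gene with its 95% interval, from the fit without (black circles) and with (blue squares) the replicate number as a block. The interval of OsWRKY62 is 1.69 to 4.76 without the block and 2.61 to 3.84 with it, and that of OsWRKY71 includes 0 in both fits.

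The change of OsWRKY62 was set against that of each other member within arrays, in 5 comparisons. The change of OsWRKY62 was larger by 3.05 than that of WRKY9, by 2.61 than that of OsWRKY71 and by 2.60 than that of OsWRKY51. It was larger by 1.81 than that of OsWRKY24 and by 0.67 than that of OsWRKY76. OsWRKY62 had the largest change of the members, so every difference is above 0 by that choice. In each comparison the within-array differences did not overlap between lines. All 5 comparisons share the values of OsWRKY62, whose lines did not overlap, so they are not separate results. The share of all genes in this state was not computed. These differences are given as values without a test, since p = 0.1 is the lowest that exact permutation (two-sided) can reach with 3 arrays per line.

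Within lines, the SDs of log2 values were 0.79 and 1.24 for OsWRKY62 in the control and the overexpressor, 0.79 and 0.95 for OsWRKY76 and 0.79 and 0.83 for OsWRKY71. The medians over the 15328 genes above background on at least 3 arrays were 0.335 and 0.33. OsWRKY24 had 0.48 and 0.22, and WRKY9 had 0.37 and 0.19. OsWRKY62 and OsWRKY76 were lower on replicate 2 than on the mean of replicates 1 and 3 in both lines. For OsWRKY62 the departures of replicate 2 on the log2 scale were -0.87 in the control and -1.44 in the overexpressor, and for OsWRKY76 they were -0.68 and -1.38. For OsWRKY71 they had opposite signs, at 1.34 and -0.33.

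The named genes most like OsWRKY62 were ranked by Pearson's r of log2 values over the 6 arrays, among 2121 named genes above background on at least 3 arrays. These values describe 6 arrays in 2 lines and so include the difference between the lines. The top 5 were CAX2 (0.993), OsWRKY76 (0.992), AMY1.5 (0.988), ERH1 (0.986) and AGO18 (0.985). OsWRKY76 thus ranked second, while OsWRKY24 ranked 112 at 0.872. AGO18, for an Argonaute protein known in rice antiviral defence, was at 496, 304 and 406 in the control and at 2374, 1029 and 1537 in the overexpressor, with a log2 change of 1.94 ± 0.35 (SE, limma adjusted p = 0.0724; 0.0299 with the replicate block). AMY1.5, of the alpha-amylase family, had a change of 1.06 ± 0.39 (adjusted p = 0.284). CAX2, for a cation exchanger, followed the same order of arrays at a small amplitude, with a change of 0.40 ± 0.23 (adjusted p = 0.506).

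**Figure D4:**
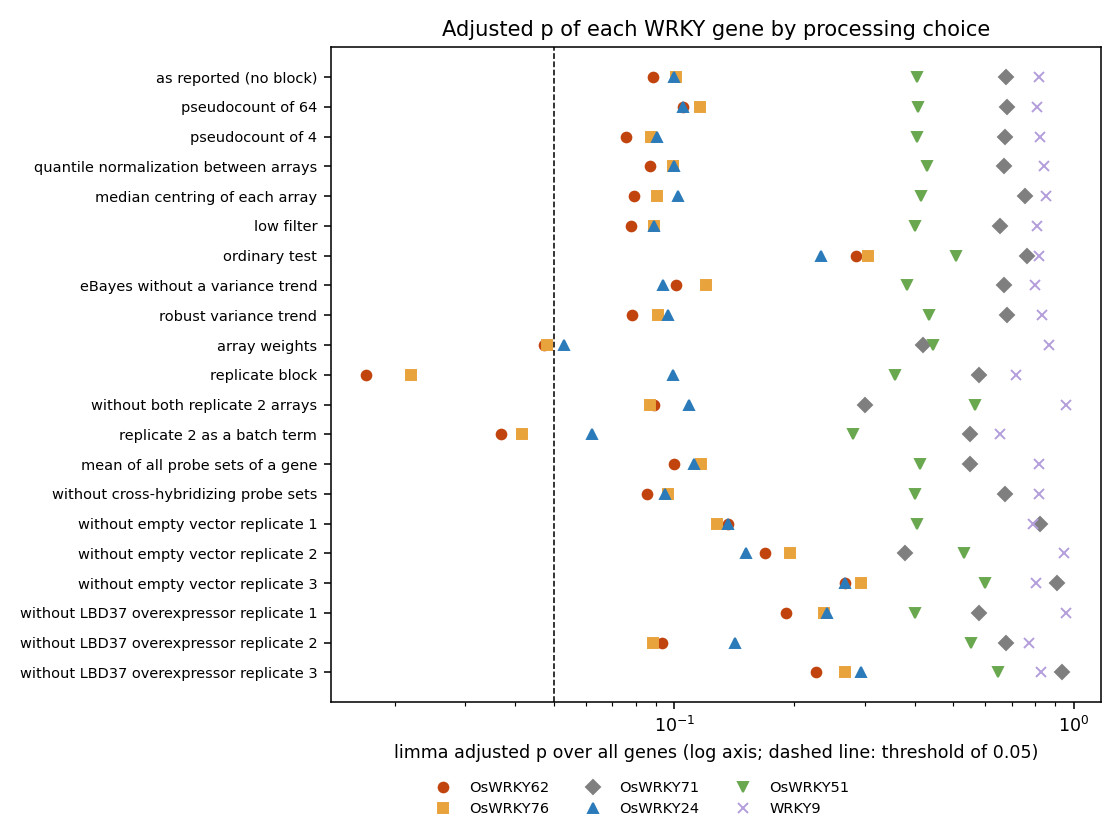
Limma adjusted p over all genes (log axis) for each WRKY gene as reported and under 20 other processing choices, with a dashed line at 0.05. OsWRKY62 and OsWRKY76 lie below the line under the replicate block, the replicate 2 batch term and array weights, and the other 4 genes lie above it throughout.

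Genes of the pathways around the WRKY factors were described from 4 lists. The lists held 24 names for diterpenoid phytoalexins, 37 for defence markers, 35 for salicylic acid signalling and 45 for immune receptors and kinases. In that order 17, 11, 16 and 18 genes were matched and measured, so the counts do not cover the whole pathways. Of 17 diterpenoid phytoalexin genes, for the antimicrobial diterpenes of rice leaves, 0 passed. Changes were above 0 in 15, against 50.7 percent of all genes, with a median of 0.54 against 0.007. Replicate 1 was the highest array of both lines in 14 of the 17, so their changes are not independent of each other. At an unadjusted p under 0.05, 2 of the 17 were higher, where 8.49 percent of all genes were. Loss of OsWRKY62 and OsWRKY76 function is known to raise these compounds in rice. Here both WRKY genes and 15 of the 17 list genes had changes above 0, and a link between them was not tested. CYP99A3, for a cytochrome P450 of momilactone synthesis, was at 113, 80.6 and 68.6 in the control and at 293, 258 and 239.7 in the overexpressor. The lines did not overlap, and its log2 change was 1.45 ± 0.30 (SE, limma adjusted p = 0.0903). CYP701A8 had a change of 1.00 ± 0.40 (adjusted p = 0.315). The diterpene synthase genes KSL7 and KSL4 had changes of 0.002 ± 0.80 and 0.18 ± 0.57 (adjusted p = 0.999 and 0.930). KSL4 was above background on only 1 control and 2 overexpressor arrays. Of the other diterpene synthase genes in the list, CPS4 and CPS2 had larger changes, at 0.99 ± 0.66 and 0.595 ± 0.39 (adjusted p = 0.577 and 0.392). KSL5 and KSL10 had 0.13 ± 0.44 and 0.20 ± 0.80 (adjusted p = 0.936 and 0.947).

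Of 11 genes for defence marker proteins, chitinases for the most part, 0 passed, 5 had changes above 0 and the median was -0.26. At an unadjusted p under 0.05, 2 were higher and 2 lower, against 8.49 and 5.66 percent of all genes. Cht4 and Cht1, both for chitinases, had the smallest p, with changes of -1.94 ± 0.56 and 1.09 ± 0.35 (limma adjusted p = 0.175 and 0.218). Cht4 was above background on 1 of 3 overexpressor arrays. A second gene of the list that also carries the name Cht1 was above background on no array. PBZ1, a pathogenesis-related protein gene induced by probenazole, was at 13105, 4920.2 and 2700.4 in the control and at 16252, 18239 and 12565 in the overexpressor. Its highest control array reached the overexpressor's range, and its change was 1.47 ± 0.53 (adjusted p = 0.271).

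Of 16 genes for salicylic acid signalling and immune co-regulators, 0 passed, 7 had changes above 0 and the median was -0.17. At an unadjusted p under 0.05, 1 was higher and 1 lower, against 8.49 and 5.66 percent of all genes. TGAL11 and TGAL8, for TGA-type bZIP factors, had the smallest p, and neither passed (limma adjusted p = 0.0738 and 0.252). TGAL11, at a mean of 49.2 in the control, was above background on no overexpressor array, so its level there has only a bound and was at least 1.39-fold lower. Such bounds set the mean of the brighter line against the lowest signal above background on each array of the other. TGAL8 had a change of 0.99 ± 0.34. Of 18 immune receptor and kinase genes, 0 passed, 8 had changes above 0 and the median was -0.075. Again 1 was higher and 1 lower at an unadjusted p under 0.05. RAC1, here the gene for the small GTPase OsRac1 of rice immunity, was at 285, 303 and 291 in the control and at 89.0, 143 and 126 in the overexpressor. The lines did not overlap, and its change was -1.21 ± 0.28 (adjusted p = 0.109). MPK3, also named MPK5, a defence-related MAP kinase gene, had a change of 1.36 ± 0.41 (adjusted p = 0.192), and a second gene named MPK3 had 0.285 ± 0.26 (adjusted p = 0.700).

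**Figure D5:**
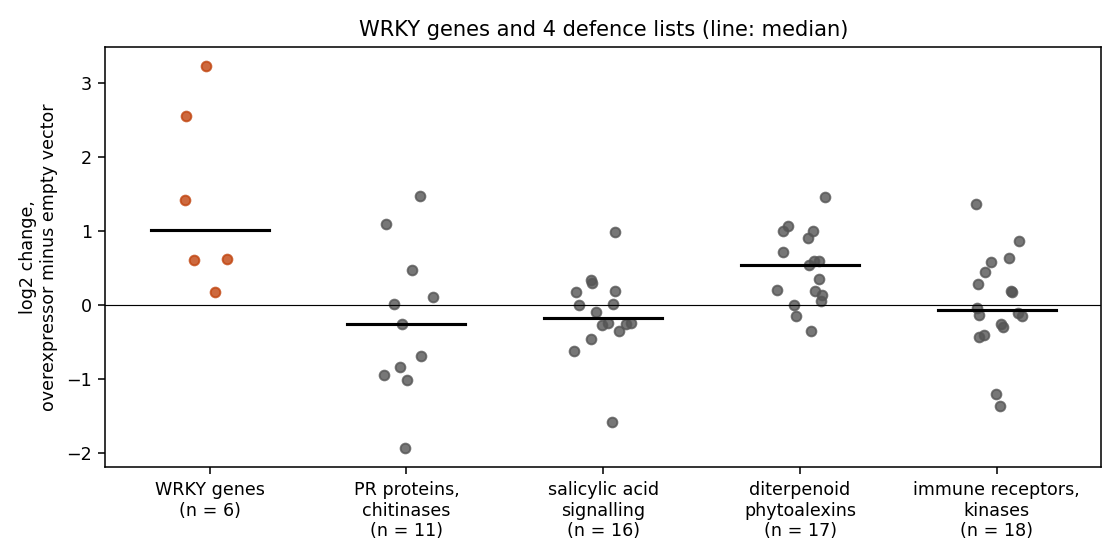
Log2 change (overexpressor minus empty vector) of each gene in the WRKY set and 4 defence lists, with a line at the median. The WRKY genes lie between 0.17 and 3.22, and the list medians are -0.26, -0.17, 0.54 and -0.075 from left to right.

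Of the 8 leaf blade markers, 0 passed, 7 had changes below 0 and the median was -0.39 (3 were lower at an unadjusted p under 0.05, a state of 5.66 percent of all genes). RBCS had a change of -0.11 ± 0.22, and PORB, for a chlorophyll synthesis enzyme, was the one above 0, at 0.55 ± 0.57. The summed intensity of the 8 was 146355 to 203855 in the control and 106020.0 to 167495 in the overexpressor. Of the 4 inflorescence and meristem markers, MADS1 passed and was lower in the overexpressor (limma adjusted p = 0.00794), where 0.519 percent of all genes passed. Its mean was 789 in the control, and none of the overexpressor arrays had it above background, so it was at least 17.1-fold lower there. MADS15 and OSH1 were above background on no array, and the summed intensity of the 4 was 1558 to 1707 in the control and 291 to 625 in the overexpressor. The 5 root and other organ markers summed to 946 to 1310 and to 688 to 3317. The part of these differences in the WRKY values was not tested.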

How the data were processed

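The deposited intensity values, 1 per probe set and array on a linear scale, had been scaled by the authors: from the values, the trimmed mean of every array is 500.1 after removal of 2 percent at each end. How probes were summarized into probe sets is not stated in the labels. Per the labels, the arrays were hybridized with biotinylated cRNA that came from 10 ug total RNA. Of 57381 probe sets, 187 controls were left out. An annotation table paired 22436 with 1 gene, 95 with several and 34663 with none, and genes were named through a RefSeq table (assembly ASM3414082v1). For arrays, their number limits the precision.

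After a log2(intensity + 16) transformation, limma 3.58.1 under R 4.3.3 (lmFit, eBayes with a variance trend, two-sided) was fitted to 57194 rice probe sets. The probe set with the highest mean per gene was kept, and p-values were adjusted (Benjamini-Hochberg) over 17905 genes. The functions were tested on simulated data. The labels do not say that replicates are separate plants, so the spread behind the p-values may be technical. The 20 alternatives cover the pseudocount, scaling, filter, variance model, probe set, block and left-out arrays.

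Pairing by the replicate numbers of the titles was checked by correlating, over 15330 genes, how arrays of either line departed from their line mean. Same-numbered arrays correlated at 0.356, 0.424 and 0.272, and others at -0.45 to 0.302. All 3 are over 0.1, and by this rule blocked values are printed beside calls they change. The check cannot establish the pairing of replicates 1 and 3. Departures from a line mean cancel within the line, so a departure of replicate 2 shared by both lines also raises the correlations among replicates 1 and 3. Empty vector replicate 3 correlated more with overexpressor replicate 1 (0.302) than with its own number (0.272). The blocked values thus assume a pairing that was not established for replicates 1 and 3.

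The members, lists and tests were chosen with earlier results of these data known. The named genes are all members, the 5 named genes with the highest correlation with OsWRKY62, and the 2 genes of smallest p in each list. The diterpene synthase genes (KSL and CPS), PBZ1, the neighbours and marker genes were added after values were seen. List genes were matched by symbol or synonym, and 7 matches to genes of another kind that share a name, or to a general chaperone, were left out. CERK1, MPK3, NPR1, NPR4, Cht1 and the leaf blade marker PPE each matched 2 genes, and both were kept. The gene bZIP79, also named TGAL4, is in 2 lists. No sequences were used here.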

Additional observations from a re-analysis of the deposited data

How the results depend on the processing

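Each result was recomputed under 20 alternatives. The count of WRKY genes past the threshold, 0, was 2 when the replicate block was used, 2 when replicate 2 was a batch term and 2 when arrays were weighted, and 0 under the other 17, single arrays left out included. The 2 genes were OsWRKY62 and OsWRKY76. OsWRKY62 passed with the replicate block (3.22, limma adjusted p = 0.0169), the batch term (3.22, 0.0369) and array weights (3.41, 0.0471), and OsWRKY76 with the same 3 (2.55, 0.0219; 2.55, 0.0415; 2.75, 0.0481). Over these alternatives as a whole the adjusted p ranged from 0.0169 to 0.286 for OsWRKY62, from 0.0219 to 0.305 for OsWRKY76 and from 0.053 to 0.293 for OsWRKY24. The genes past the threshold over all genes, 93, were 234 with the block, 494 with the batch term, 404 with array weights, 239 without both replicate 2 arrays and 1 by the ordinary test; the cause was not tested. The same count was 4, 30 and 7 without empty vector replicate 1, 2 or 3 and 10, 35 and 4 without overexpressor replicate 1, 2 or 3, where fewer arrays were fitted. With single arrays left out, log2 changes ranged from 2.53 to 3.70 for OsWRKY62, 2.05 to 3.01 for OsWRKY76, 1.16 to 1.64 for OsWRKY24, 0.15 to 1.06 for OsWRKY71, 0.40 to 0.81 for OsWRKY51 and -0.038 to 0.30 for WRKY9. WRKY9 turned below 0 only without empty vector replicate 2 (-0.038), and the other 5 kept their sign under all 20; for genes whose lines do not overlap, removal of an array cannot turn the sign.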

Other observations

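Replicate 1 was the highest array of its line in both lines for 14 of 17 diterpenoid phytoalexin genes and for 2 of 6 WRKY genes, OsWRKY62 and OsWRKY76, against 15.7 percent of 15328 genes above background on at least 3 arrays. The count was 4 of 11 for the defence marker list, 4 of 16 for the salicylic acid list and 4 of 18 for the immune receptor and kinase list. Among the marker lists it was 2 of 4 for inflorescence and meristem, 0 of 8 for leaf blade and 0 of 5 for root and other organs. The order of replicates 2 and 3 was not counted. In the control line alone, replicate 1 was the highest for 16 of the 17 phytoalexin genes. The diterpene synthase gene KSL7 was at 375 on empty vector replicate 1 and at 24.2 and 53.9 on replicates 2 and 3, and at 114, 68.0 and 84.9 in the overexpressor.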
